A study of Homo sapiens and Mus musculus with 61 samples.

Results

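The guide sgHBG-sg2 is the second of a pair of single guide RNAs that direct the capture protein to the gamma-globin promoters. Its table compares 2 sgHBG-sg2 libraries with 4 sgGal4 libraries. All 6591 windows of 300 bp that the table lists were taken, out of 91133 distinct windows over the 17 tables of the series. In the CAPTURE-ChIP-seq of this study, a catalytically inactive Cas9 (dCas9) that carries a biotin tag is recovered with streptavidin, and its attached DNA is read by sequencing. All libraries described here were made from K562, a human erythroleukaemia line. The sgHBG-sg2 libraries carry the guide to the HBG1 and HBG2 promoters, and the first guide to those promoters, sgHBG, has 4 libraries and its own table of 6808 windows. The sgGal4 libraries carry a guide against the yeast Gal4 sequence, a site that human cells are not meant to hold. Both groups share the cell line, the capture and the streptavidin beads. The labels number the libraries but do not say that they came from separate cultures, so a p-value here reflects only how libraries vary, and that variation may be technical. No RNA was measured in these files, so the identity of the K562 cells could not be checked against marker genes.

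HBG1 and HBG2 encode the gamma chains of fetal haemoglobin. They lie in tandem on the minus strand of chromosome 11, between the embryonic gene HBE1 and the adult genes HBD and HBB, and are near-copies of each other through gene duplication and conversion. Their promoters hold CCAAT boxes bound by NF-Y and TGACCA elements, the letters recognised by the repressor BCL11A. K562 cells express embryonic and fetal globin and little adult beta-globin.

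The windows that carried the on-target signal had the same bases in both genes. The table's HBG1 window spans chr11:5270888-5271187 and its HBG2 window chr11:5275818-5276117, in hg19. Each crosses the transcription start of its gene (GENCODE 44 lifted to GRCh37, HBG1 at 5271087 and HBG2 at 5276011), and holds 100 bases before the HBG1 start and 106 bases before the HBG2 start. The stretches upstream of the starts, read from the GRCh37 reference on the minus strand, are shown because they are the promoter part of the captured DNA. The capitals mark a TGACCA element that overlaps a CCAAT box, and the AATAAA of the TATA-like box.
HBG1, chr11:5271088-5271187: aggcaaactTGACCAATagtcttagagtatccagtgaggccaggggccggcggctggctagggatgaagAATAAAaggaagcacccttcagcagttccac
HBG2, chr11:5276012-5276117: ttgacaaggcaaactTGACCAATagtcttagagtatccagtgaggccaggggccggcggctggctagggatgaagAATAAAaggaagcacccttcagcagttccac

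TGACCA began at position -91 from either gene start, CCAAT at -88 and AATAAA at -31, each on the strand of the gene. TGACCA and CCAAT share the letters CCA here. A search of both strands found TGACCA in 789 of the 6591 listed windows, CCAAT in 1818 (27.6%) and AATAAA in 1311 (19.9%), so none of these motifs marks the gamma-globin windows out. The other end of each window reaches past exon 1. Both windows hold a further TGACCA on the gene strand, at position 157 counted from 1 at the gene start, in intron 1. The coding part of exon 1 and the first bases of intron 1 are shown because most of the window lies inside the gene, with the coding part and that TGACCA in capitals.
HBG1, chr11:5270888-5271034: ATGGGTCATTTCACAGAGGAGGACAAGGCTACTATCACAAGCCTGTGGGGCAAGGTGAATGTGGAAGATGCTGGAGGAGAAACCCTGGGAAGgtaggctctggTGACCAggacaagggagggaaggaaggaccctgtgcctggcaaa
HBG2, chr11:5275818-5275958: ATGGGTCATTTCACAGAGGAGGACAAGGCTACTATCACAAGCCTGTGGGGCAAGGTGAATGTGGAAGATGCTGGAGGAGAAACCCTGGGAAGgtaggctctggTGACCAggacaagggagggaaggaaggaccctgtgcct

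Both windows lie inside a stretch of 623 bases that is identical in the 2 genes, chr11:5270687-5271309 in HBG1 and chr11:5275611-5276233 in HBG2, at an offset of 4924 bases. A read that falls wholly within it has 2 exact sources in hg19. The labels' protocols state that only reads aligning to exactly 1 place were kept, and the read length is not given in the sources used here. How reads came to be counted at these windows was not tested. Reads here are whole numbers recovered from the deposited log2 levels, and a library's total is the sum over the listed windows, not its sequencing depth. These totals were 52292 and 45328 for sgHBG-sg2, against 49631, 88071, 8909 and 8681 for sgGal4. The sgGal4 replicates 3 and 4 stood apart from the others by their low totals, with 35.1% and 33.4% of windows at 0 reads, against 4.82% to 12.2% in the other 4 libraries.

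The gamma-globin windows were the 2 highest of the table in both sgHBG-sg2 libraries. The HBG1 window held 2743 and 1601 reads in the sgHBG-sg2 libraries, against 0, 0, 0 and 0 reads in the sgGal4 libraries. The HBG2 window held 2728 and 1652 reads in the sgHBG-sg2 libraries, against 0, 0, 0 and 0 reads in the sgGal4 libraries. The groups did not overlap at either gene, and the 2 genes were close to each other within each library.

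As a share of the listed reads, the pair of windows took 10.5% of sgHBG-sg2 replicate 1 (95% exact Clopper-Pearson interval 10.2 to 10.7) and 7.18% of replicate 2 (6.94 to 7.42). The mean share was 8.82% ± 2.32 (SD, n = 2), and the intervals of the replicates do not meet. For sgGal4, a count of 0 allows a share at either window of up to 0.00604%, 0.00341%, 0.0337% and 0.0346% in replicates 1 to 4, taking 3 reads as the floor. Over pooled libraries, the HBG1 window held 4.45% of the sgHBG-sg2 reads (4344 of 97620), at least 2303-fold higher than the floor of 3 reads over the whole sgGal4 group (0.00193% of 155292 reads). The HBG2 window held 4.49% of the sgHBG-sg2 reads (4380), at least 2323-fold higher than that floor. These intervals and floors cover counting error only. The folds are bounds only if reads with 2 exact sources were kept alike in both groups, which was not tested.

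On the deposited scale, the HBG1 window had log2 levels of 11.42 and 11.29 in the sgHBG-sg2 libraries, against 0.03, -0.48, 2.49 and 2.52 in the sgGal4 libraries. The HBG2 window had 11.41 and 11.34 in the sgHBG-sg2 libraries, against the same 4 values in sgGal4. The sgGal4 values are the levels that the authors' scaling gives to 0 reads in each library, so the ratio at these windows is set on 1 side by that scaling. The log2 ratio, taken from the mean linear level of sgHBG-sg2 over that of sgGal4, was 9.65 at HBG1 and 9.67 at HBG2. The mean log2 levels differed by 10.22 at HBG1 (SE 0.863, limma adjusted p = 0.000542, higher in 2 of 2 sgHBG-sg2 libraries) and by 10.24 at HBG2 (SE 0.863, limma adjusted p = 0.000542, higher in 2 of 2). The sgGal4 spread that enters these SEs and p-values is likewise only the difference between the levels given to 0 reads, with an SD of 1.59 (n = 4) at either window, and holds no measured variation between sgGal4 libraries. The next ratio in the table was lower than that of HBG1 by 6.12 log2 units.

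**Figure D1:**
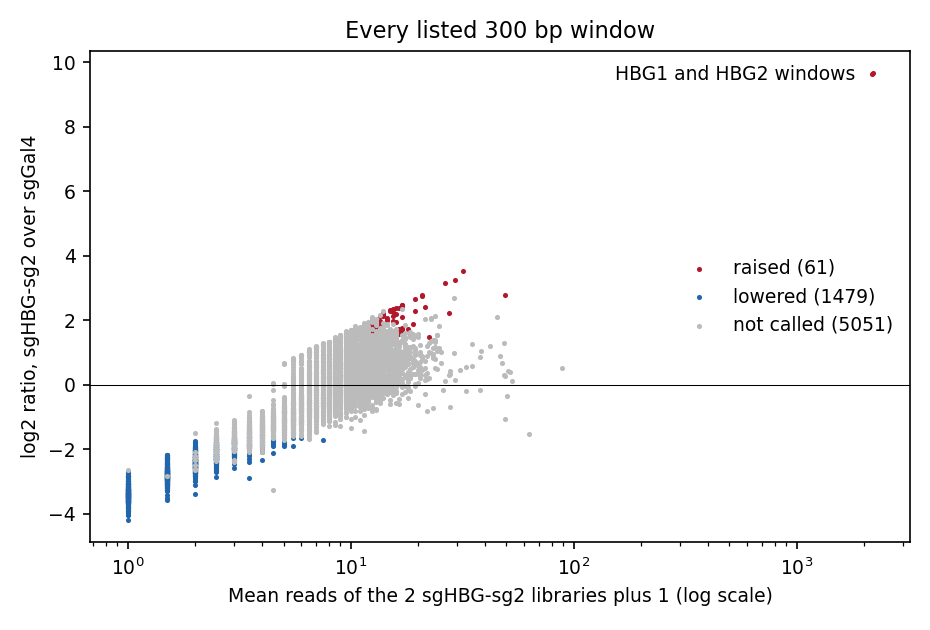
Log2 ratio of sgHBG-sg2 over sgGal4 (vertical axis) against the mean number of recovered reads in the 2 sgHBG-sg2 libraries plus 1 (horizontal log axis), with 1 point for each of the 6591 windows and colours for the call at limma adjusted p below 0.05 and a ratio of at least 1 or at most -1. The HBG1 and HBG2 windows lie apart from all others on both axes, while the 1479 lowered windows lie at the low end of the read axis.

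A comparison inside the sgHBG-sg2 libraries does not use sgGal4. In sgHBG-sg2 replicate 1, the highest window outside the globin cluster was the promoter of EEF1A1, a translation elongation factor gene, with 99 reads, and HBG1 held 27.7 times as many. In sgHBG-sg2 replicate 2, it was a window on chromosome 2 whose nearest gene start is that of ANKRD30BL, with 96 reads, and HBG1 held 16.7 times as many. Neither of these windows was called raised against sgGal4. EEF1A1 held 99 and 25 reads in sgHBG-sg2, against 19, 36, 264 and 61 reads in sgGal4 (log2 ratio -1.52, limma adjusted p = 0.784). The 264 and 61 reads were in sgGal4 replicates 3 and 4, whose listed totals were only 8909 and 8681 reads. Replicates 1 and 2 had totals of 49631 and 88071 reads, so raw reads are not on the same scale across these libraries. The ANKRD30BL window held 80 and 96 reads in sgHBG-sg2, against 52, 93, 24 and 34 reads in sgGal4, with a log2 ratio of 0.52 (limma adjusted p = 0.465).

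The third listed window of the beta-globin cluster, chr11:5273371-5273670, is intergenic and lies between HBG1 and HBG2. It held 6 and 3 reads in the sgHBG-sg2 libraries, against 7, 14, 0 and 2 reads in the sgGal4 libraries. The groups overlapped, with a log2 ratio of -0.72 (limma adjusted p = 0.38), and the window ranked 3912 in the table. It is listed in all 17 tables, and in the 16 others its ratio to sgGal4 lay between -2.79 and 0.14, at -0.79 for sgHBG. The tables share the sgGal4 libraries and were normalised separately. No window at HBB, HBD, HBE1, the hypersensitive sites HS1 to HS5 of the locus control region or 3'HS1 is listed for sgHBG-sg2. On chromosome 11 within 1 Mb outside the cluster, 2 windows are listed, in introns of TRIM6 (log2 ratio -0.17, limma adjusted p = 0.927) and FHIP1B (log2 ratio -2.22, limma adjusted p = 0.0192).

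**Figure D2:**
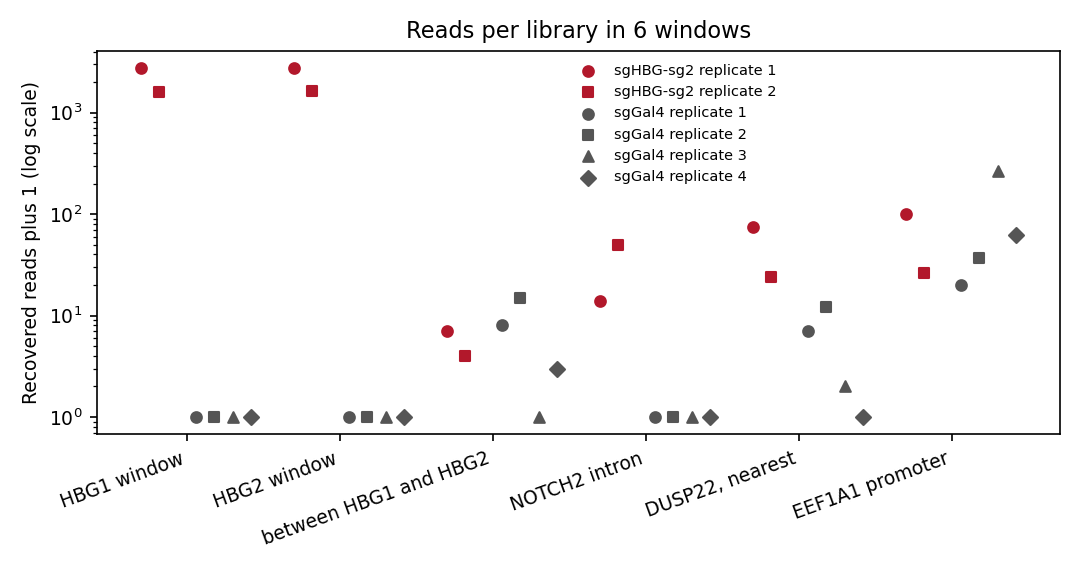
Recovered reads plus 1 on a log axis in 6 windows, with the 2 sgHBG-sg2 libraries in red left of the 4 sgGal4 libraries in grey. At HBG1 and HBG2 the sgHBG-sg2 libraries held 1601 to 2743 reads and the sgGal4 libraries 0, while the groups overlapped at the window between the genes and at the EEF1A1 promoter.

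The 2 gamma-globin guides were set side by side by the place of their windows and by the split of reads between the genes. The sgHBG-sg2 windows were centred 49.5 bp past the HBG1 start and 43.5 bp past the HBG2 start. The sgHBG windows, chr11:5271083-5271382 and chr11:5276001-5276300, were centred at -145.5 bp from the HBG1 start and at -139.5 bp from the HBG2 start, on its upstream side, and so covered the promoter and hardly any of the gene. All 300 bases of each sgHBG-sg2 window lie in the identical stretch, while 73 bases of the sgHBG window at HBG1 and 67 bases of that at HBG2 lie outside it. The log2 ratio to sgGal4 was 9.65 for sgHBG-sg2 and 9.62 for sgHBG at HBG1, and 9.67 for sgHBG-sg2 and 9.25 for sgHBG at HBG2. These ratios share the sgGal4 libraries, come from separate normalisations and were not tested against each other. The other 15 tables list no window within 1.5 kb of the HBG1 start.

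**Figure D3:**
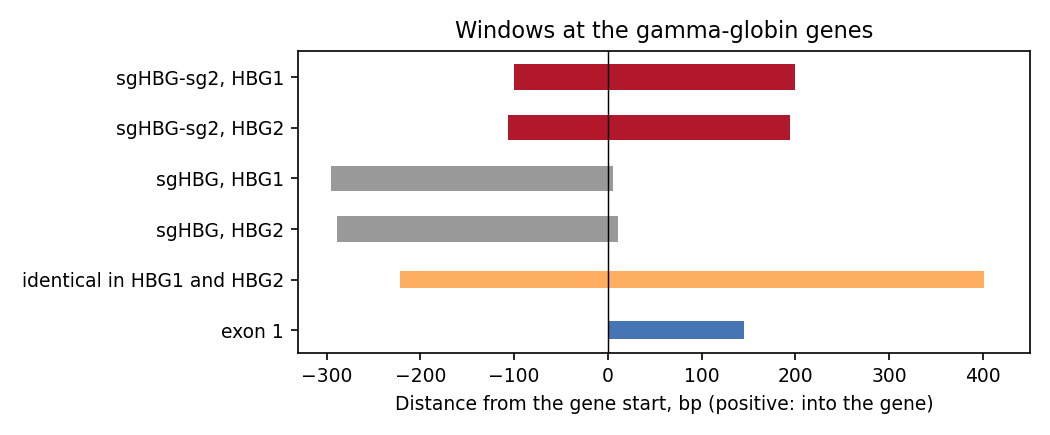
Position of the listed windows of sgHBG-sg2 (red) and sgHBG (grey) relative to the start of each gamma-globin gene, in bp along the gene's strand, with the stretch identical in HBG1 and HBG2 (orange) and exon 1 (blue). The sgHBG-sg2 windows cross the start and lie inside the identical stretch, and the sgHBG windows lie almost wholly upstream and extend beyond it.

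The reads counted at HBG1 and at HBG2 were nearly equal in the sgHBG-sg2 libraries, where every base of the windows is shared by the genes. A read inside them cannot be assigned to a gene, so this split and arbitrary placement of reads cannot be told apart. HBG1 held 50.1% of the HBG1 plus HBG2 reads in sgHBG-sg2 replicate 1 (95% exact Clopper-Pearson interval 48.8 to 51.5) and 49.2% in replicate 2 (47.5 to 50.9). In the sgHBG libraries HBG1 held 47.1%, 52.9%, 46.3% and 47.1%. The means were 49.7% ± 0.651 (SD, n = 2) for sgHBG-sg2 and 48.3% ± 3.06 (SD, n = 4) for sgHBG. Since part of each sgHBG window is specific to its gene and no part of an sgHBG-sg2 window is, these shares are not alike in kind and no test of their difference is given. The pair of windows took 10.5% and 7.18% of the listed reads in sgHBG-sg2, against 13.6%, 2.91%, 5.26% and 5.23% in sgHBG, so the ranges overlapped.

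Windows that recur elsewhere in the genome were described for their reads in each library. Of the 6591 listed windows, 47 (0.713%) have an exact copy of all 300 bases elsewhere in hg19, and 45 of these lie outside the globin cluster. In these 45 windows the sgHBG-sg2 libraries held 560 and 445 reads, against 13, 20, 2 and 3 reads in the sgGal4 libraries. That was 1.07% and 0.982% of the listed reads in sgHBG-sg2, against 0.0262%, 0.0227%, 0.0224% and 0.0346% in sgGal4. Each of the 45 windows held reads in both sgHBG-sg2 libraries, while 40 to 43 of them held 0 reads in each sgGal4 library. Of all 47, 40 held 0 reads in all 4 sgGal4 libraries and so had reads in this table only from sgHBG-sg2. The direction of the difference is thus largely set by which windows are listed, and it is given as a description, with no test. The exact-copy windows with the most reads held 73 and 30 reads in the sgHBG-sg2 libraries, so the reads at HBG1 and HBG2 were far above those of other windows of this kind. As the HBG1 and HBG2 windows are exact copies themselves, capture there and a difference in how reads with 2 sources were kept cannot be told apart in the ratio to sgGal4.

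Exact-copy windows were unevenly spread over the tables. They made up 0.713% of the windows of sgHBG-sg2, 0.94% of those of sgHBG and 0.874% of those of sgHS3-sg2, a guide to hypersensitive site 3. In the other 14 tables they made up 0% to 0.0829%, or 0 to 14 windows.

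**Figure D4:**
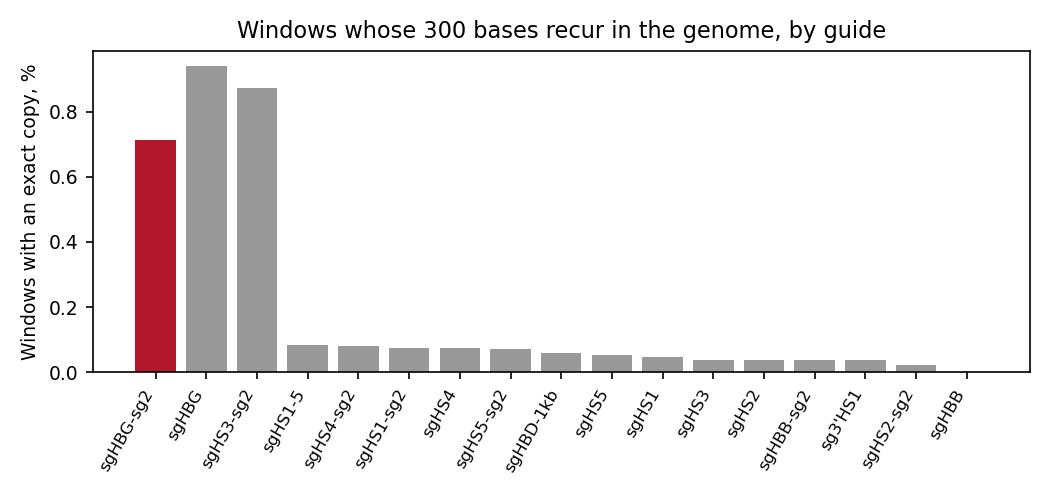
Share of listed windows, in percent, whose 300 bases occur again in hg19, for each of the 17 guides, with sgHBG-sg2 in red. The tables of sgHBG-sg2, sgHBG and sgHS3-sg2, stand between 0.713% and 0.94%, and the other 14 at or below 0.0829%.

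Across the table, windows called lower in sgHBG-sg2 outnumbered those called higher, but the counts depended on the scale of the values and on the sgGal4 libraries used. A window was called raised at a log2 ratio of at least 1 and lowered at one of at most -1, with a limma adjusted p below 0.05. By this rule 61 windows were raised, 0.926% of those tested, and 1479 were lowered, 22.4% of those tested. Centring each library on its own median level moved the median log2 ratio of all windows to 0.04 and the split to 337 raised and 1214 lowered, so ratios below are read against the median of all windows. On recovered reads with a pseudocount of 5 reads, limma called 2 windows raised and 0 lowered. Against sgGal4 replicates 1 and 2 alone, 986 were raised and 1424 lowered, and against replicates 3 and 4 alone, 5 were raised and 703 lowered. At the stricter limit of a limma p of at most 1e-05, 2 windows (0.0303%) were raised, those at HBG1 and HBG2, and 5 (0.0759%) were lowered, and leaving out either sgHBG-sg2 library took the count of raised windows at this limit to 0. By the ratio alone, 748 windows (11.3%) were at 1 or above and 2337 (35.5%) at -1 or below, and with a limma p below 0.05 before adjustment, 380 (5.77%) were higher and 2050 (31.1%) lower. The median log2 ratio of all windows was -0.28. How windows came to be listed is not given, so these counts describe the listed windows only. The table's own tag marked 2 windows as on-target, those at HBG1 and HBG2, and 0 as off-target. The count of raised windows moved with 1 library at a time: it was 8 without sgHBG-sg2 replicate 1 and 3 without sgHBG-sg2 replicate 2. It was 12, 15, 116 and 125 without sgGal4 replicates 1, 2, 3 and 4 in turn. The count of lowered windows was 730 without sgHBG-sg2 replicate 2.

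The 10 highest ratios outside the cluster lay between 2.46 and 3.52. Of these windows, picked by their ratio, 9 had a limma adjusted p below 0.05, against 0.926% of all windows called raised. Of the 10, 6 have an exact copy in hg19, 9 have a near-identical one (at least 95% identity over at least 90% of the window), and 7 held 0 reads in all 4 sgGal4 libraries. Which copy gave the reads of a window with a copy cannot be told apart. In the 7 windows without sgGal4 reads, the sgGal4 spread behind the p-value is only the difference between the levels given to 0 reads. The highest was chr1:120543738-120544037 in an intron of NOTCH2, a Notch receptor gene with partial duplicates on chromosome 1. It held 13 and 49 reads in sgHBG-sg2, against 0, 0, 0 and 0 in sgGal4 (log2 ratio 3.52, limma adjusted p = 0.017). The replicates of sgHBG-sg2 differed there.

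Intergenic windows followed. The window chr9:42415897-42416196, whose nearest start is that of CBWD7 at 255840 bp, held 34 and 23 reads in sgHBG-sg2, against 0 in all 4 sgGal4 libraries (log2 ratio 3.26, limma adjusted p = 0.00998). A window on chromosome 9 nearest to AL354718.1 had a log2 ratio of 3.16, and 2 windows on chromosome 1 nearest to the Fc receptor gene FCGR2A, at 50638 and 35848 bp from its start, had 2.79 and 2.46. The window nearest to DUSP22, a phosphatase gene whose start lies 142998 bp away, held 73 and 23 reads in sgHBG-sg2, against 6, 11, 1 and 0 in sgGal4 (log2 ratio 2.78, limma adjusted p = 0.00729). Unlike most of the 10, it had reads in the controls.

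The remaining windows were a window near TCAF1 (2.66) and 3 inside or at the start of genes. An exon of CDK11B, a cyclin-dependent kinase gene with a near-copy beside it, held 12 and 28 reads in sgHBG-sg2, against 1, 0, 0 and 0 in sgGal4 (log2 ratio 2.74, limma adjusted p = 0.0257). The promoter of HNRNPH1, which encodes an RNA-binding splicing factor, held 14 and 18 reads in sgHBG-sg2, against 0 in all 4 sgGal4 libraries (log2 ratio 2.49, limma adjusted p = 0.028). The promoter of ADGRG1, an adhesion receptor gene, held 11 and 45 reads in sgHBG-sg2, against 0, 6, 0 and 1 in sgGal4 (log2 ratio 2.68). It was the only 1 of the 10 with no near-identical copy and the only 1 that missed the threshold (limma adjusted p = 0.0515).

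Among windows with no near-identical copy, the 5 highest ratios, from 2.29 to 2.68, were all at promoters with 66.7% to 79.3% G and C. After ADGRG1 came MYO1D, an unconventional myosin gene, with 31 and 10 reads in sgHBG-sg2, against 3, 1, 0 and 0 in sgGal4 (log2 ratio 2.40, limma adjusted p = 0.0278). RNF225 held 10 and 27 reads in sgHBG-sg2, against 3, 3, 0 and 0 in sgGal4 (log2 ratio 2.29, limma adjusted p = 0.0258). BBLN (log2 ratio 2.36, limma adjusted p = 0.055) and ABCD3, a peroxisomal transporter gene (log2 ratio 2.30, limma adjusted p = 0.178), did not pass. At ABCD3 the 2 sgHBG-sg2 libraries held 2 and 24 reads, and the 4 sgGal4 libraries 0.

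Windows without reads in the controls overlapped largely with windows that recur in the genome. In all, 130 windows (1.97%) held 0 reads in all 4 sgGal4 libraries, of which 40 (30.8%) have an exact copy and 76 (58.5%) a near-identical one, against 0.713% and 2.34% of all windows. The 128 of them outside the cluster held 1 to 34 reads (median 8) in sgHBG-sg2 replicate 1 and 1 to 49 (median 8) in replicate 2. Outside the cluster, 152 windows have a near-identical copy, with a median log2 ratio of 1.33, 22 raised (14.5%) and 1 lowered (0.658%). These windows had a median of 0 reads in each sgGal4 library. Their direction is thus partly set by which windows are listed, and no test is given. The 6437 windows with no such copy had a median log2 ratio of -0.31, with 37 raised (0.575%) and 1478 lowered (23.0%).

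The 10 lowest ratios, from -4.19 to -3.87, all came from windows with 0 reads in both sgHBG-sg2 libraries. In these windows the sgGal4 libraries held 6 to 24 reads in replicate 1, 8 to 43 in replicate 2 and 0 to 6 in replicates 3 and 4. None of these 10 windows, picked by their ratio, has a near-identical copy, against 2.34% of all windows. All passed at a limma adjusted p below 0.05, against 22.4% of all windows called lowered. The sgHBG-sg2 spread behind these p-values is only the difference between the levels given to 0 reads. The lowest was chr1:205294677-205294976, at 3954 bp from the start of the kinase gene NUAK2, with 0 and 0 reads in sgHBG-sg2, against 15, 27, 3 and 4 in sgGal4 (log2 ratio -4.19, limma adjusted p = 0.00283). The promoter of CCDC148 held 0 and 0 reads in sgHBG-sg2, against 8, 11, 2 and 6 in sgGal4 (log2 ratio -3.93, limma adjusted p = 0.00303). The others were introns of SNAPC3, a subunit gene of the small nuclear RNA transcription complex, and of the exocyst gene EXOC4, and intergenic windows nearest to OR4E1, LNPK, ACVR2A, GRIA1, ATP6V1G3 and TRPS1, at 102012 to 1478046 bp from those starts.

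Over the table, 340 windows (5.16%) held 0 reads in both sgHBG-sg2 libraries, and 339 of these were called lowered, 22.9% of all lowered windows. In these 340 windows the sgGal4 medians were 8, 13, 1 and 1 reads. These windows had reads in this table only from sgGal4, so their direction is largely set by which windows are listed. A fold for a window at 0 reads also depends on the level given to 0. That log2 level was 0 and -0.10 in the sgHBG-sg2 libraries, against 0.03, -0.48, 2.49 and 2.52 in sgGal4. Replicates 3 and 4 of sgGal4 thus lie above sgHBG-sg2 in these windows even at 0 reads.

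The ratio moved with the annotation class of the window. The 2205 promoter windows (within 1 kb of a protein-coding start) had a median log2 ratio of 0.50, with 36 raised (1.63%) and 69 lowered (3.13%). The 405 exon windows had a median of -0.51, with 4 raised and 82 lowered (20.2%). The 1534 intron windows had a median of -1.23, with 4 raised and 573 lowered (37.4%). The 2447 intergenic windows had a median of -0.88, with 17 raised and 755 lowered (30.9%). Promoters thus made up 59.0% of the raised windows and 4.67% of the lowered ones, against 33.5% of all windows.

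The ratio moved with base composition over a wider span. Windows with under 40% G and C (1093) had a median log2 ratio of -2.40. Of them, 826 (75.6%) were lowered and 0 raised, against 22.4% lowered and 0.926% raised of all windows. From 40% to 50%, from 50% to 60% and from 60% to 70%, the medians were -1.26, -0.38 and 0.21. Windows with 70% or more (1301) had a median of 0.78, with 36 raised (2.77%) and 4 lowered (0.307%). Median G and C content was 71.3% in the raised windows and 38.7% in the lowered windows, against 57% in all. Reads showed the same order against sgGal4 replicates 1 and 2. The median in windows under 40% was 1 read in each sgHBG-sg2 library, against 8 and 14 in these sgGal4 replicates. In windows of 70% or more it was 9 and 11 reads in the sgHBG-sg2 libraries, against 3 and 6 in sgGal4 replicates 1 and 2. In sgGal4 replicates 3 and 4 the median was 1 read in both bins, so they showed no such order. The log2 level given to 0 reads in these sgGal4 replicates, 2.49 and 2.52, lies above that of 1 read in the sgHBG-sg2 libraries (1 and 0.97). Base composition and annotation class move together, and their part in the calls was not tested.

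**Figure D5:**
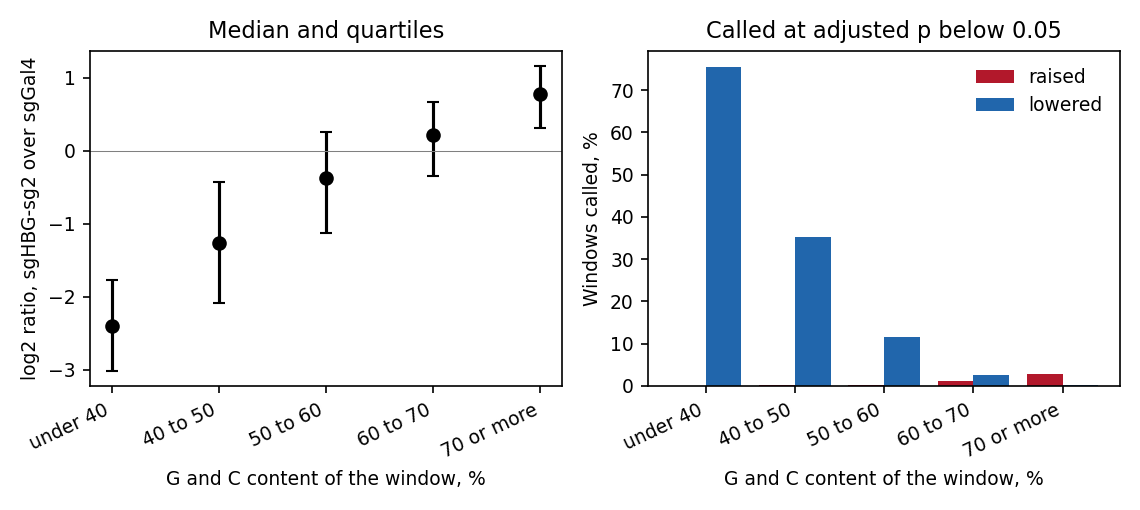
Left, the median log2 ratio of sgHBG-sg2 over sgGal4 with its quartiles in 5 bins of G and C content; right, the percent of windows in each bin called raised (red) or lowered (blue) at a limma adjusted p below 0.05. The median lies at -2.40 in the bin under 40% and at 0.78 in the bin of 70% or more, and 75.6% of windows in the lowest bin were lowered.

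Windows near genes of globin control were few, and their ratios are set beside the table's median of -0.28. Promoter windows as a class had a median log2 ratio of 0.50, and windows of 70% or more G and C had one of 0.78. Of 25 genes for repressors and activators of gamma-globin, 10 had a listed window within 10 kb of their start, 11 windows in all, with a median log2 ratio of 0.51, 0 raised and 2 lowered. Median G and C content of the list was 70.3%. The lowered share of the list was 18.2%, near the 22.4% of all windows, and 0.926% of all windows were raised. Both lowered windows were in EHMT1, a histone H3K9 methyltransferase gene. Its exon window held 1 and 0 reads in sgHBG-sg2, against 5, 12, 1 and 1 in sgGal4 (log2 ratio -2.53, limma adjusted p = 0.00654). Its intron window held 4 and 1 reads in sgHBG-sg2, against 12, 22, 1 and 1 in sgGal4 (log2 ratio -1.73, limma adjusted p = 0.0287).

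The highest of this list was the promoter of KDM1A, the histone demethylase LSD1, with 12 and 13 reads in sgHBG-sg2, against 1, 0, 0 and 1 in sgGal4 (log2 ratio 1.63, limma adjusted p = 0.0974). LIN28B, an RNA-binding protein gene of fetal programmes, held 21 and 26 reads in sgHBG-sg2, against 3, 7, 3 and 1 in sgGal4 (log2 ratio 1.55, limma adjusted p = 0.0736). Neither window passed. HIC2, a repressor of BCL11A, held 6 and 9 reads in sgHBG-sg2, against 0 in all 4 sgGal4 libraries (log2 ratio 1.45, limma adjusted p = 0.124). Its window has 2 near-identical copies. NFYC, an NF-Y subunit gene, held 38 and 8 reads in sgHBG-sg2, against 7, 18, 2 and 0 in sgGal4 (log2 ratio 1.34, limma adjusted p = 0.242). HIC2 and NFYC did not pass either. All 4 windows lie at promoters with 70.3% to 79.7% G and C.

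Of 12 genes of the GATA and TAL1 complex and related haematopoietic factors, 6 had 7 windows, with a median log2 ratio of -0.05, 1 raised and 0 lowered, against 0.926% raised and 22.4% lowered of all windows. The raised window was the promoter of TAL1, an erythroid and stem cell factor, with 10 and 15 reads in sgHBG-sg2, against 1, 3, 0 and 0 in sgGal4 (log2 ratio 1.86, limma adjusted p = 0.0362). The window has 71.3% G and C. The lowest was the promoter of ZFPM1, the GATA1 cofactor FOG1, with 4 and 3 reads in sgHBG-sg2, against 7, 18, 0 and 1 in sgGal4 (log2 ratio -0.93, limma adjusted p = 0.228). Of 8 genes of CTCF and cohesin, 2 had a window, CTCF (log2 ratio 1.23, limma adjusted p = 0.112) and the cohesin release factor gene WAPL (0.27, limma adjusted p = 0.417), and neither passed. The alpha-globin genes shared 1 window, nearest to HBQ1, with 6 and 15 reads in sgHBG-sg2, against 11, 8, 1 and 3 in sgGal4 (log2 ratio 0.15, limma adjusted p = 0.906).

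The highest windows outside the cluster differed between the gamma-globin guides. The 10 highest of sgHBG had log2 ratios between 4.92 and 7.65, and 0 of the 10 are listed for sgHBG-sg2, counting an overlap of at least 150 bases. Of all 6808 sgHBG windows, 4061 (59.7%) are listed for sgHBG-sg2, and these are 61.6% of the 6591 sgHBG-sg2 windows. The 10 highest windows of sgHBG were led by a window assigned to SYF2, a splicing factor gene. That window held 975, 76, 406 and 851 reads in the sgHBG libraries (log2 ratio 7.65). Windows assigned to RRAGD and to PCBD1 came next, with a log2 ratio of 5.69 for PCBD1. Of the 10 highest of sgHBG-sg2, 4 are listed for sgHBG, with log2 ratios of 2.78 in sgHBG-sg2 and 2.73 in sgHBG near DUSP22, 2.74 and 2.94 at CDK11B, 2.66 and 2.62 near TCAF1, and 2.49 and 2.41 at HNRNPH1. Each of these 4 windows has a near-identical copy in hg19, so which copy gave their reads cannot be told apart. The 10 lowest windows of sgHBG-sg2 are all listed for sgHBG, with log2 ratios there between -3.19 and -1.24. The comparisons share the sgGal4 libraries, so these values are given side by side only.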

How the data were processed

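The authors deposited a table of 300 bp windows with log2 levels per library and a log2 ratio (M), normalised within the table; the headers state no unit. Per the submitters' processing notes, Bowtie 1.0.0, Picard and hg19 were used. How the windows were chosen and normalised is not given in the sources used here. Columns were assigned by the library names in their headers. Levels form a line in log2 of reads plus 1, and 100% came out whole within 0.01 or 0.01% of the value, whichever was larger. No count test was run. Limma 3.58.1 (R 4.3.3, no trend) was fitted over 6591 windows with Benjamini-Hochberg adjustment. It was also run on simulated normal noise, which holds no read counts and no windows at 0 reads. That run does not test the fit at low reads. Copies were sought in GRCh37 by exact search and BLAST 2.17.0. Named windows are those of the cluster, the 10 highest and 10 lowest ratios outside it, and gene lists; EEF1A1, ANKRD30BL and the 5 highest windows without copies were chosen after their values were seen. Members and lists were chosen with earlier results of these data known. Alternatives covered pseudocounts, a read minimum, centring, sgGal4 subsets, single libraries and a replicate block.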

Additional observations from a re-analysis of the deposited data

Results flagged for a closer look

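Of 29 groups of 4 libraries tested for a library far from its group, 1 passed Dixon's 95% limit, and chance flags about 1 in 20. It was the share of HBG1 in the HBG1 plus HBG2 reads of the sgHBG libraries, where replicate 2 stood at 52.9% (275 of 520 reads, 95% exact Clopper-Pearson interval 48.5 to 57.2) against 46.3% to 47.1% in the other 3. Its gap to the nearest of them was 0.878 of the group's range. That library had the fewest reads at the 2 windows of the 4.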

How the results depend on the processing

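The HBG1 and HBG2 windows stayed called under every setting run, with log2 ratios from 7.09 to 11.58 and limma adjusted p-values from 7.64e-16 to 0.0312. Counts of windows moved, and the cause was not tested. The values below are windows raised and lowered at a limma adjusted p below 0.05 (61 and 1479 as reported), then lowered at a p of at most 1e-05 (5 as reported). On the log2 of recovered reads, scaled to each library's listed total, they were 26, 1309 and 1 with a pseudocount of 1 read, 120, 978 and 1 with 0.5, and 2, 0 and 0 with 5. A limma trend gave 62, 1505 and 3. With at least 20 summed reads (6029 windows) they were 102, 1480 and 43. Centring the libraries moved the median ratio of all windows to 0.04 and gave 337, 1214 and 7. Against sgGal4 replicates 1 and 2 alone they were 986, 1424 and 0, and against replicates 3 and 4 alone 5, 703 and 0. Leaving out each library in turn gave 3 to 125 raised, 730 to 1251 lowered, 0 to 1 lowered at the stricter limit and 0 to 2 raised at it, with 0 when either sgHBG-sg2 library was left out. With 1 sgHBG-sg2 library left, it was taken to vary like sgGal4. Leaving out windows with an exact copy, a choice made after seeing the data, gave 51, 1488 and 8, and 0 raised at the stricter limit, since HBG1 and HBG2 are then left out.

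The groups share replicate numbers 1 and 2. Deviations of same-numbered libraries from their group mean correlated at 0.0681 and -0.0624. The deviations of the 2 sgHBG-sg2 libraries mirror each other by construction, and the levels of sgGal4 replicates 1 and 2 correlated at 0.82. These values therefore cannot tell whether the libraries were paired. With a replicate block the counts were 582, 1509 and 0, with 3 raised at the stricter limit. The HBG1 share differed between sgHBG-sg2 and sgHBG by 0.658 to 2.86 percentage points when each library was left out in turn, the highest without sgHBG replicate 2. Taking all windows within 1.5 kb of a start changed no share. Median reads of 1 in sgGal4 replicates 3 and 4 limit what single windows can show.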
